A study of Mus musculus with 37 samples.

Results

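The medullary collecting duct and the medullary interstitium are adjoining tissues of the embryonic kidney, the one an epithelial tube and the other the loose stroma around it. They were compared across all genes with every array whose source name gives either component, which was 3 duct arrays and 4 interstitium arrays of 37 in the series. All 7 samples came from wild-type CD-1 mouse fetuses at embryonic day E15.5, Theiler stage 23, and each pooled tissue from about 50 sections of 5 kidneys. The labels name laser capture as the dissection method for 6 of the 7, and give none for interstitium array 1. Each sample was read on 1 Affymetrix array after its RNA had gone through 2 rounds of amplification. The ureteric bud (4 arrays) and the metanephric mesenchyme (8 arrays) of wild-type CD-1 kidneys at E11.5, Theiler stage 19, served to ask whether the difference between epithelium and neighbouring tissue was the same at both ages. Nothing in the labels says that the pools came from separate litters, so the spread between arrays of a component may be partly technical. The p-values and SEs rest on that spread pooled over all 9 components of the series, not on the 7 arrays alone.

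The collecting duct tree grows out of the ureteric bud, and its medullary part carries out the last steps of salt, water and acid handling before urine leaves the kidney. Duct and stroma instruct each other: the duct secretes Wnt and Hedgehog ligands that the stroma around it receives, and the stroma lays down matrix and growth factors in return. Epithelial cells are held together by tight junctions and desmosomes and sit on a basement membrane, whereas stromal cells lie apart in a fibrous matrix.

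Levels are given as log2 of the normalized signal plus an offset of 34.62, a scale on which a probe set with no signal reads about 5.11 before normalization. Low levels are therefore compressed and the fold changes of weakly expressed genes understated. Of 15709 genes tested, those called had a Benjamini-Hochberg adjusted p under 0.05 and a log2 fold change of at least 1. Arrays are numbered within each component in the order of their accessions. In bulk samples such as these, fewer cells of a type and less RNA per cell cannot be told apart.

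The arrays of a component differed in their marker levels. The mean log2 level of 30 collecting duct and ureteric epithelium markers was 11.26, 12.54 and 12.2 in the 3 duct arrays and 10.24, 9.1, 8.46 and 8.68 in the 4 interstitium arrays. The mean of 28 interstitium markers was 12.07, 10.63 and 11.64 in duct and 13.01, 13.02, 13.21 and 13.22 in interstitium. Duct array 1 thus held the least duct and the most stromal signal of the 3, and interstitium array 1 the most duct signal of the 4. Both had an array of the ureteric tip as their nearest relative in the series (Pearson r = 0.928 and 0.892 across genes), and interstitium array 2 had one of the renal corpuscle (r = 0.939). Interstitium array 2 was in turn the nearest array of interstitium arrays 3 and 4 (r = 0.911 and 0.908), and its means of both marker lists lay near theirs. Ret, the receptor of Gdnf that marks the branching tip, stood at 12.77 and 12.23 in interstitium arrays 1 and 2 against 5.48 and 6.41 in the other two, and at 9.24, 8.37 and 10.04 in duct (log2 fold change -0.01). Most counts that lead a paragraph are therefore also given without duct array 1 and interstitium arrays 1 and 2, a check chosen after these values were seen. Across genes, arrays correlated at 0.91 to 0.952 within duct, 0.867 to 0.911 within interstitium and 0.824 to 0.906 between them.

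**Figure D1:**
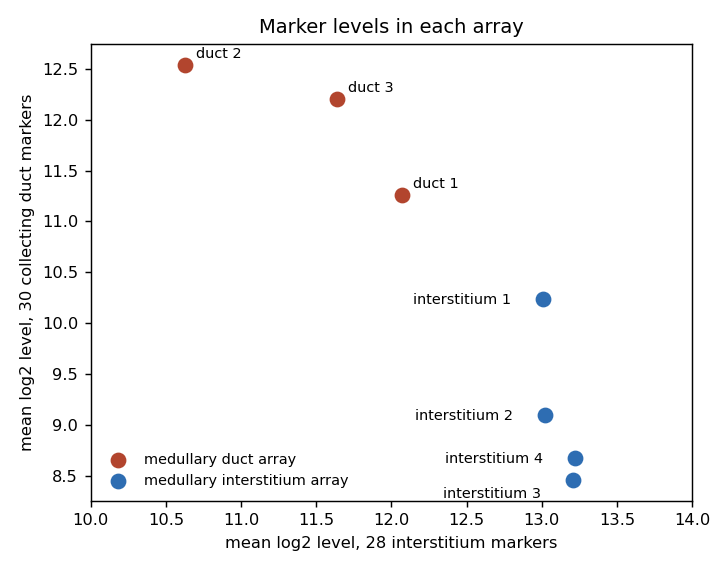
Mean log2 level of the collecting duct markers (vertical axis) against that of the interstitium markers (horizontal axis), 1 point per array. The 3 duct arrays lie at 11.26 or more on the vertical axis and the 4 interstitium arrays at 10.24 or less, with duct array 1 and interstitium array 1 closest to each other.

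The duct and its stroma differed in 701 genes (4.46% of those tested): 386 were higher in duct (2.46%) and 315 higher in interstitium (2.01%). The arrays of the 2 components did not overlap for 2415 genes (15.4%). The median log2 fold change of all genes was -0.09, and -0.25 when arrays were scaled by their median alone, a setting that called 278 genes in duct and 487 in interstitium. The count depended on single arrays. It was 173 without duct array 2, 366 without duct array 3, 404 without interstitium array 3 and 414 without interstitium array 4, and 786 without duct array 1 and interstitium arrays 1 and 2, called here the 3 arrays set aside. Calls kept with each of the 7 arrays left out in turn numbered 114 in duct and 44 in interstitium. Named calls outside these are given with the arrays whose omission removed them. Where a gene has several probe sets, the brightest was used. Of 103 called genes named, 57 have other probe sets, and for 32 of these no other probe set was called. For the other 25 at least 1 was called in the same direction, and none was called in the opposite one.

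Among the 15 largest calls higher in duct were Gsdmc2, a gasdermin of a family of close copies, with a log2 fold change of 6.93 ± 0.63 (SE), Foxa1 with 6.25, Tmem45b with 5.55, Pof1b with 5.47, Tmem30b with 5.3, Mymx with 5.24, Dab1 with 5.12 and the aspartic protease gene Ctse with 5.11. Gsdmc2 read 14.76, 15.53 and 14.79 in the duct arrays and 6.83, 6.79, 9.1 and 9.68 in the interstitium arrays (adjusted p = 5.42e-09). Pof1b, an actin-binding protein of epithelial junctions, read 11.05, 11.15 and 11.48 against 5.63, 5.28, 6.86 and 5.26. The 15 were picked among calls whose arrays do not overlap, so every duct array lay above every interstitium array by choice. For both genes duct array 1, with its stromal signal, was close to the other duct arrays. The dimmer probe set of Ctse was not called (0.46). The other members of the 15, Scnn1g, Cldn8, Dsg2, Krt19, Upk3a, Shh and Lama5, are described with their groups.

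Some genes of salt, water and acid transport were higher in the duct. Of 37 measured members 13 were called in duct and none in interstitium, against 2.46% and 2.01% of all genes. The median log2 fold change was 1.36 against -0.09 for all genes. The count was 7 without duct array 2 and 15 without the 3 arrays set aside. All 3 subunit genes of the epithelial sodium channel were among them. Scnn1g read 11.79, 14.1 and 12.98 in duct and 8.47, 7.3, 6.21 and 6.07 in interstitium, a log2 fold change of 5.94 ± 0.62 (61.5-fold, adjusted p = 9.95e-08). Scnn1b followed with 3.34 ± 0.59. Scnn1a had 2.79 ± 0.65, with duct array 1 at 7.55 below interstitium array 4 at 7.7, and lost its call without duct array 2 (adjusted p = 0.14) or duct array 3 (0.0663). The ammonia transporter gene Rhcg differed by 4.62 ± 0.57, and the sodium pump regulators Fxyd3 and Fxyd4 by 4.87 ± 0.6 and 4.63 ± 0.59.

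Genes of water handling differed in whether they were called. Avpr2, the vasopressin receptor that acts on the principal cell, read 10.02, 11.72 and 10.71 in duct and 8.55, 6.43, 5.6 and 7.91 in interstitium (3.69 ± 0.54, adjusted p = 3.35e-05). Aqp3, the water channel of the basolateral membrane, differed by 3.9 ± 0.72, and 1 of its 3 other probe sets was called (2.43). Aqp2, the apical water channel that vasopressin controls, read 9.08, 10.25 and 9.74 against 7.93, 8.51, 7.99 and 5.79. Its arrays did not overlap, yet its log2 fold change of 2.13 ± 0.69 was not called (adjusted p = 0.0696). It was called at 3.1 without the 3 arrays set aside (adjusted p = 0.0378), and its adjusted p was 0.0473 without interstitium array 2. Hsd11b2, which shields the duct's mineralocorticoid receptor from glucocorticoid, read 11.54 to 12.75 in duct and 11.85 to 12.45 in interstitium and was not called either (0.08 ± 0.55, adjusted p = 0.975).

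Some uroplakin and simple keratin genes were higher in the duct. Uroplakins coat the lumen of the urinary tract and keratins form the epithelial cytoskeleton. Upk3a read 12.05, 14.34 and 13.75 in duct and 7.62, 8.04, 7.96 and 8.32 in interstitium, a log2 fold change of 5.39 ± 0.5 (adjusted p = 6.05e-09), and Upk3b differed by 4.08 ± 0.56. Upk1b was called at 3.46 ± 0.86, but it read 7.77 in duct array 1, inside the interstitium range of 6.45 to 8.64, against 13.16 and 11.49 in the others. Its call was lost without duct array 2 or 3 or interstitium array 3 or 4 (adjusted p = 0.0554 to 0.269). Upk1a and Upk2 were not called, at -0.21 ± 0.52 and -0.59 ± 0.63. Of 14 keratin and other intermediate filament genes measured, 4 were called in duct and none in interstitium, against 2.46% and 2.01% of all genes. Krt19 differed by 5.43 ± 0.7 and Krt18 by 3.43 ± 0.65. Krt7 and Krt8 differed by 4.41 ± 0.94 and 3.01 ± 0.77. Krt7 lost its call without duct array 2 (adjusted p = 0.0633), and Krt8 without duct array 2, duct array 3, interstitium array 2 or interstitium array 3 (0.0536 to 0.113).

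**Figure D2:**
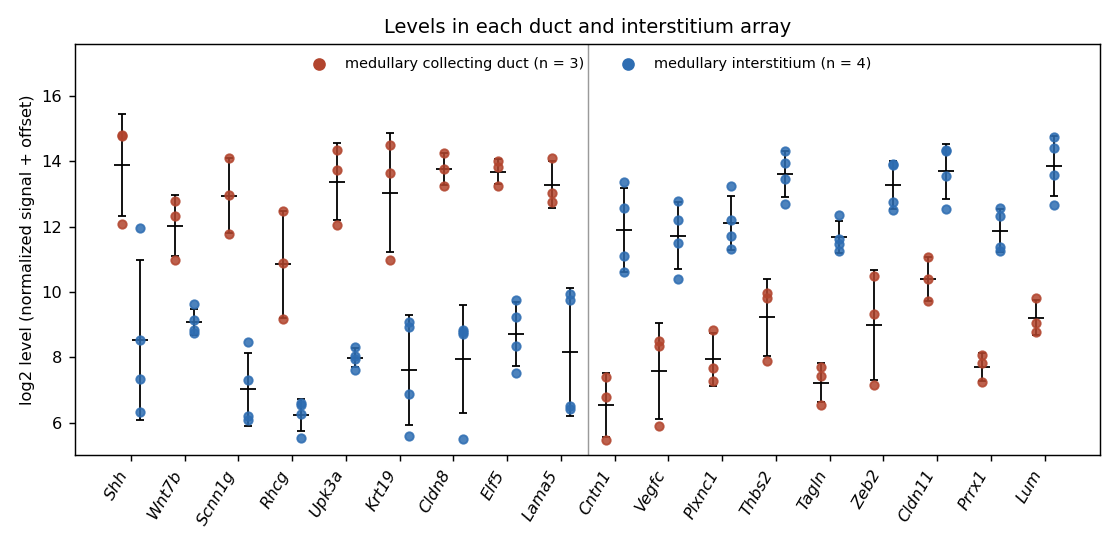
Log2 level of 9 genes called in duct (left) and 9 called in interstitium (right) in each array (points), with the mean and SD of each component (black). For each gene shown, the 3 duct points and the 4 interstitium points do not overlap; the closest approach is Shh, at 12.09 in duct array 1 and 11.95 in interstitium array 1.

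About as many cell junction and polarity genes were called in duct as were not. Of 49 measured members 25 were called in duct and 2 in interstitium, against 2.46% and 2.01% of all genes. The median log2 fold change was 1.69. The duct count was 12 without duct array 2 and 28 without the 3 arrays set aside. Among the claudins, which set what a tight junction lets pass, Cldn8 read 13.26, 13.77 and 14.26 in duct and 8.71, 8.78, 5.48 and 8.82 in interstitium (5.82 ± 0.96, adjusted p = 0.00022). Cldn23 and Cldn6 differed by 4.09 ± 0.68 and 3.57 ± 0.79. Cldn11 ran the other way, at 9.72, 11.06 and 10.4 in duct and 12.55, 13.55, 14.35 and 14.32 in interstitium (-3.3 ± 0.69, adjusted p = 0.00337). The claudin family was therefore split between the tissues, with no overlap of arrays for these 4 members. Cldn3 was not called, with 12.66 in interstitium array 1 against 7.18 to 9.93 in the other 3 (3.16 ± 1.26, adjusted p = 0.18). Its adjusted p was 0.0376 without interstitium array 1, and without the 3 arrays set aside it was called at 5.17 (0.0444).

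Desmosome genes called were all higher in the duct. Dsg2, a desmosomal cadherin, read 12.76, 13.91 and 14 in duct and 10.09, 9.94, 5.23 and 6.44 in interstitium (5.63 ± 0.91, adjusted p = 0.000174). Its partner Dsc2 differed by 4.24 ± 0.89 and the desmosomal plaque gene Dsp by 3.77 ± 0.69. At the tight junction, Cgn differed by 3.1 ± 0.55 and Marveld2, the tricellulin gene, by 3.24 ± 0.69. The membrane protease gene St14 differed by 4.29 ± 0.81, and its inhibitors Spint1 and Spint2 by 3.21 ± 0.57 and 3.1 ± 0.5. The protease and both inhibitors were thus higher in the same tissue. Cdh1, the E-cadherin gene, read 13.71, 14.28 and 14.8 against 12.48, 10.88, 10.7 and 9.65 (3.34 ± 0.83, adjusted p = 0.0132), and lost its call without duct array 2, duct array 3 or interstitium array 4 (0.0665 to 0.0816). Cdh11, a mesenchymal cadherin gene, was called in interstitium at -2.51, a call lost without duct array 2 or interstitium arrays 2, 3 or 4 (0.0501 to 0.386). Tjp1, whose scaffold protein serves many cell types, did not meet the threshold (-0.44 ± 0.53, adjusted p = 0.795).

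Transcription factors differed in both directions. Of 27 epithelial transcription and splicing regulators measured, 10 were called in duct and none in interstitium (median log2 fold change 2.07). Of 40 stromal regulators, 7 were called in interstitium and none in duct (median -1.08). Of all genes, 2.46% were called in duct and 2.01% in interstitium. Without duct array 2 the counts were 3 and 1, and without the 3 arrays set aside 13 and 9. Foxa1, a forkhead factor of endodermal and urinary epithelia, read 12.12, 14.75 and 14.7 in duct and 7.35, 7.33, 10.47 and 5.27 in interstitium (adjusted p = 1.46e-05). Elf5, an Ets factor of epithelia, read 13.25, 14 and 13.82 against 9.74, 8.36, 7.51 and 9.23 (4.98 ± 0.67, adjusted p = 1.21e-05). Tfcp2l1, which the collecting duct needs for its cell types, differed by 4.08 ± 0.85. The dimmer probe sets of both genes were not called (0.43 for Elf5, -0.6 and -0.75 for Tfcp2l1). Gata3, required for the ureteric lineage, differed by 4.24 ± 1.12 and lost its call without duct array 2 or 3 or interstitium array 3 or 4 (adjusted p = 0.0507 to 0.152).

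Of the stromal regulators called, Zeb2, a repressor of epithelial genes, had the largest difference. It read 9.33, 7.15 and 10.49 in duct and 13.27 ± 0.74 (mean and SD, n = 4) in interstitium, every array of which lay above every duct array (-4.28 ± 0.68, adjusted p = 0.000153). This was the brightest of its 5 probe sets, and the other 4, at -0.8 to -2.47, were not called. Prrx1, a homeobox factor of limb and stromal mesenchyme, read 7.23 to 8.07 in duct and 11.26 to 12.57 in interstitium (-4.18 ± 0.95), a call lost without duct array 2 (adjusted p = 0.068). Tcf21 and Tbx18 were called at -2.06 ± 0.58 and -3.89 ± 1.03. Tcf21 lost its call without duct array 2 or 3 or interstitium array 3 or 4 (adjusted p = 0.0764 to 0.399), and Tbx18 without any duct array or interstitium array 3 or 4 (0.0508 to 0.12). Foxd1, the gene that defines the renal stromal lineage, was not called. It read 13.68, 11.06 and 11.63 in duct and 13.03, 13.38, 11.19 and 11.37 in interstitium (-0.12 ± 0.97, adjusted p = 0.979), so that duct array 1 was the highest of the 7. Among repressors related to Zeb2 in function, Zeb1 (-1.08 ± 0.98) and Snai1 (0.47 ± 0.51) were not called. Snai2 was lower in every duct array, and its brightest probe set was not called either (-2.63 ± 0.86, adjusted p = 0.073). Its adjusted p was 0.0241 without duct array 1, it was called at -4.03 without the 3 arrays set aside (0.0246) and at -3.01 under median scaling, and its other probe set was called at -2.81.

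Hox genes, which give positional identity along the body axis, were split. Of 28 measured, 4 were called in duct and 2 in interstitium, against 2.46% and 2.01% of all genes. The counts were 1 and 0 without duct array 2, and 3 and 3 without the 3 arrays set aside. Hoxd3 read 11.35, 12.49 and 11.04 in duct and 9.24, 9.42, 8.54 and 9.13 in interstitium (2.55 ± 0.49, adjusted p = 0.00149). Hoxa10 read 12.65, 10.8 and 11.37 against 13.08, 13.95, 13.8 and 13.92 (-2.08 ± 0.43, adjusted p = 0.00319), a call lost without duct array 2 (0.0777). The other calls were Hoxd1 (3.37), Hoxb5 (2.17) and Hoxd8 (1.75) in duct and Hoxd10 (-1.8) in interstitium. Hoxd1 lost its call without duct array 2 or 3 (adjusted p = 0.0584 to 0.147). Hoxb5 lost it without any but duct array 3 and interstitium array 1 (0.0501 to 0.247), Hoxd8 without duct array 2 or 3 or interstitium array 2 or 3 (0.0632 to 0.185), and Hoxd10 without any but duct array 1 and interstitium array 1 (0.0892 to 0.279). By position in their clusters, the 4 genes higher in duct belong to paralogue groups nearer the 3′ end than the 2 higher in interstitium. Of these only Hoxd3 kept its call with each array left out, and the 22 measured members not called were not examined for such an order.

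The promoters of genes higher in the duct often carried the E-box CACCTG, the letters that the Zeb and Snail repressors read. RefSeq (GRCm38.p6) gave the 250 bases before the start of 297 of the 386 duct genes and 222 of the 315 interstitium genes. CACCTG, read on both strands, stood in 35.4% of the duct promoters and 9.46% of the interstitium promoters, against 16.7% of 12566 tested genes with a promoter and 17.1% of all 27025 promoters of the same length. A pair or more stood in 34 of the 297 duct promoters, 2 of the 222 interstitium promoters and 268 of the 12566 tested. The neighbouring form TACCTG stood in 37 of the 297 duct promoters, 15 of the 222 interstitium promoters and 889 of the 12566 tested. Among the other E-boxes, CAGCTG stood in 12.1%, 18% and 12.2%, and CACGTG in 7.74%, 4.5% and 7.93%. Each motif was counted on its own, so matches of different motifs may share bases.

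The median GC content was 61.2% in duct, 58% in interstitium and 58.8% in tested promoters. When the tested promoters were divided into 4 equal groups by GC content, CACCTG stood in 27.6%, 34.3%, 41.3% and 35.1% of duct promoters from the lowest to the highest group. In interstitium promoters it stood in 6.35%, 10.7%, 15.6% and 6.9%, and in all tested promoters in 14.9%, 17.7%, 18.3% and 15.8%. The duct share was the higher in each of the 4 groups. With the calls of the alternative analyses the duct share was 32.1% to 42.2% and the interstitium share 9.02% to 15.9%. These are descriptions of letters, chosen after the calls were known, and say nothing of what binds there. The promoters of 6 duct genes whose calls were kept with each array left out and that hold at least 2 copies are given here 5′ to 3′ on the gene's strand, each ending at the base before the start, with CACCTG or its reverse complement CAGGTG in capitals.
Elf5, chr2:103411848-103412097, plus strand: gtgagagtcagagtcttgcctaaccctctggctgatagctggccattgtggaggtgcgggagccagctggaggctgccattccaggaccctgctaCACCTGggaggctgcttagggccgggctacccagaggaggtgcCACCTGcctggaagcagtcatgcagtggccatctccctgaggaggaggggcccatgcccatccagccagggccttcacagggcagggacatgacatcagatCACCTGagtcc
Spint2, chr7:29281978-29282227, minus strand: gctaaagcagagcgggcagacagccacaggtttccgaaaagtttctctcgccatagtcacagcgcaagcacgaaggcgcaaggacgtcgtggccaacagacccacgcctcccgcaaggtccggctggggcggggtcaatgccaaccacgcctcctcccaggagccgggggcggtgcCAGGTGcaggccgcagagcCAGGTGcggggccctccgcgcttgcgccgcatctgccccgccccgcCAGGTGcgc
Tmem30b, chr12:73546396-73546645, minus strand: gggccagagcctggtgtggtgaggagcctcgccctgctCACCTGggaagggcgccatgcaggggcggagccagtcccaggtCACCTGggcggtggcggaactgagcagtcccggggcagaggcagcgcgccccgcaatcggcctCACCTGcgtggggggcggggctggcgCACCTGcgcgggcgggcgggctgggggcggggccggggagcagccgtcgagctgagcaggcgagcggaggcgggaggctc
Scnn1g, chr7:121734229-121734478, plus strand: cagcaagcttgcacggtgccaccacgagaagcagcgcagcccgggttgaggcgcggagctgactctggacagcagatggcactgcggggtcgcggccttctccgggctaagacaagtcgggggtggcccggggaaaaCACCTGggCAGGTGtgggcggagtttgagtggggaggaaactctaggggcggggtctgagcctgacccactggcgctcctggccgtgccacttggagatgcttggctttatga
Wnt9b, chr11:103749822-103750071, minus strand: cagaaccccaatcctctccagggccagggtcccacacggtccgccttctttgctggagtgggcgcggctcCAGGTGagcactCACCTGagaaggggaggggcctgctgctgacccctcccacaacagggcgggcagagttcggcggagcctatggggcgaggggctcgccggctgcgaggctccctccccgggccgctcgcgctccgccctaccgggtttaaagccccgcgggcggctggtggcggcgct
Lama5, chr2:180225860-180226109, minus strand: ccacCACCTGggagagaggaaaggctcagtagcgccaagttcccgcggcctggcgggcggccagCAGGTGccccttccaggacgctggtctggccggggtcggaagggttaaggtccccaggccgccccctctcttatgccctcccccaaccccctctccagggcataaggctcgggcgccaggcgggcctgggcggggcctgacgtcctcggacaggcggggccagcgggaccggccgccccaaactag
Tmem30b holds 4 copies, Elf5 and Spint2 hold 3 each, and the other 3 promoters hold 2 each.

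Basement membrane genes differed in both directions. Of 29 measured members 5 were called in duct and 4 in interstitium, against 2.46% and 2.01% of all genes. The median log2 fold change was 0.22. Without the 3 arrays set aside the counts were 6 and 5. Lama5, the laminin chain of mature epithelial basement membranes, read 12.75, 14.11 and 13.02 in duct and 9.93, 9.76, 6.4 and 6.5 in interstitium (5.15 ± 0.99, adjusted p = 0.00151). Col18a1 differed by 2.52 ± 0.41, Fras1 by 2.86 ± 0.46 and Npnt, the nephronectin gene, by 3.62 ± 0.67. On the other side, the nidogen genes Nid1 and Nid2, which link laminin to collagen IV, were called at -1.99 ± 0.6 and -1.87 ± 0.51, Lama2 at -3.45 ± 0.94 and Frem1, a partner of Fras1, at -2.32 ± 0.53. All 4 interstitium calls were lost without duct array 2 (adjusted p = 0.377, 0.316, 0.17 and 0.149), and those of Nid1, Nid2 and Lama2 also without duct array 3 or interstitium array 3 or 4. Nid1 lost it without interstitium array 2 as well. The fifth duct call, Lamb3, was lost without duct array 2 or 3 (0.0531 to 0.126). The collagen IV gene Col4a1 was high in all 7 arrays, at 14.38 to 15.32, and did not meet the threshold (-0.48 ± 0.26), though it was called at -1.15 under median scaling.

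Of 46 interstitial matrix genes measured, 17 were called in interstitium and none in duct, against 2.01% and 2.46% of all genes. The median log2 fold change was -1.87. The count was 2 without duct array 2, which had the least stromal signal, and 15 without the 3 arrays set aside. Thbs2, a matricellular thrombospondin, read 9.83, 7.87 and 9.96 in duct and 12.7, 13.94, 14.33 and 13.46 in interstitium (-4.39 ± 0.86, adjusted p = 0.00163). Lum, a small proteoglycan of collagen fibrils, read 9.81, 8.78 and 9.05 against 14.76, 12.68, 13.58 and 14.41 (-4.65 ± 1.02). The collagen cross-linking enzyme gene Lox differed by -4.12 ± 1, Ogn by -4.09 ± 0.98, Col14a1 by -3.86 ± 0.85 and Mfap5 by -3.49 ± 0.78. Without duct array 2 the calls of Lum, Lox, Ogn, Col14a1 and Mfap5 were lost (adjusted p = 0.0507, 0.15, 0.16, 0.108 and 0.0633). The call of Fn1, the fibronectin gene (-1.6 ± 0.35), was lost in the same way (0.133). Col3a1 was at 14.85 to 15.98 in duct and 16.72 to 16.85 in interstitium. It was lower in every duct array, but its difference of -1.35 ± 0.64 was not called (adjusted p = 0.289); under median scaling it was called at -2.48.

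The 15 largest calls higher in interstitium included neuronal adhesion genes. Cntn6 read 5.98, 6.58 and 7.04 in duct and 11.45, 11.33, 13 and 12.88 in interstitium (-5.63 ± 0.98, adjusted p = 0.000475), and Cntn1 6.79, 5.46 and 7.38 against 10.6, 11.1, 12.57 and 13.37 (-5.37 ± 0.71, adjusted p = 7.2e-06). Both encode contactins, cell surface proteins best known from axons. The 2 dimmer probe sets of Cntn1 gave -1.66 and -1.07 and were not called. Vwc2, a secreted Bmp antagonist, differed by -5.09 ± 0.74 (-0.52 and not called by its dimmer probe set), Tgm5 by -4.56 ± 0.83, Tagln by -4.45 ± 0.83, Plxnc1 by -4.19 ± 0.65 and the actin-binding Nexn by -4.18 ± 0.9. Another 5 of the 15 lost their calls without duct array 2: Lyz1 (-5.05, adjusted p = 0.117), Epha3 (-4.43, 0.117), Ptx3 (-4.42, 0.131), Elavl2 (-4.32, 0.0946) and Mrc1 (-4.3, 0.0617). The calls of Ptx3 and Mrc1 were lost without duct array 3 too (adjusted p = 0.0618 and 0.0652). The probe set used for Lyz1 may also read its near-identical copy Lyz2, and another Lyz1 probe set gave a log2 fold change of 0. The dimmer probe sets of Elavl2, at -1.47 to 0.58, were not called. The 7 neural and neural crest markers measured were not called (limma gave 1 an unadjusted p under 0.05), with list means of 7.63 to 8.54 in duct and 8.07 to 9.14 in interstitium. A list this short holds few or no calls at the 4.46% of all genes called.

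Some macrophage and smooth muscle markers were higher in the interstitium. Of 11 macrophage markers 4 were called in interstitium and none in duct (median log2 fold change -2.09), against 2.01% and 2.46% of all genes. The list mean was 7.55 to 8.3 in duct and 9.36 to 10.6 in interstitium. Cx3cr1, a chemokine receptor of resident macrophages, read 7.89, 7.95 and 9.09 in duct and 10.3, 10.87, 11.41 and 12.22 in interstitium (-2.89 ± 0.6, adjusted p = 0.00317), and its dimmer probe set was not called (-0.45). Of 12 smooth muscle and mural markers 3 were called in interstitium, against the same 2.01% of all genes. Their list means were 8.22 to 8.73 in duct and 9.8 to 10.64 in interstitium. Tagln led them with 7.7, 6.54 and 7.43 against 11.62, 11.26, 11.47 and 12.37 (adjusted p = 0.000978). Without duct array 2 each of these 2 lists held 1 call, and without the 3 arrays set aside 2. None of 15 endothelial and 7 erythroid markers was called, although their medians were -0.87 and -1.8 and limma gave 1 and 3 of them an unadjusted p under 0.05. With 4.46% of all genes called, lists this short hold few or no calls at the background share. The erythroid list mean was 8.07 to 8.66 in duct and 8.67 to 10.8 in interstitium. The part of these cells in the other interstitium calls was not tested. Of nephron cells, the lists of progenitor (9 measured), podocyte (6), proximal tubule (11) and loop (9) markers gave no calls, and limma gave 1, 0, 2 and 1 of them an unadjusted p under 0.05. These lists too are short against the 4.46% of all genes called. The progenitor list mean was 11.07, 8.97 and 10.32 in the duct arrays and 10.76, 11.75, 8.09 and 10.1 in the interstitium arrays.

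**Figure D3:**
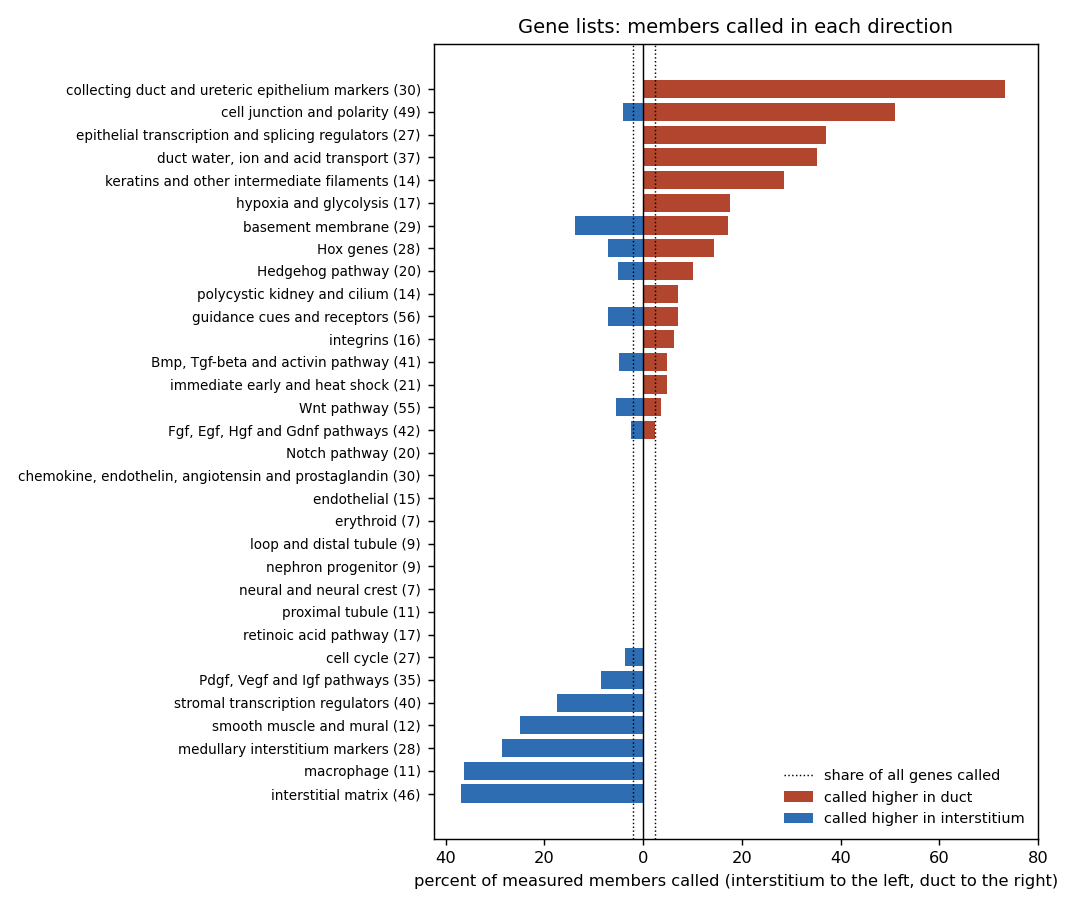
Percent of the measured members (number in parentheses) of each gene list called higher in duct (right) or in interstitium (left); dotted lines mark the shares of all genes called, 2.46% and 2.01%. Lists with fewer than 7 measured members are left out; the duct markers, junction and epithelial regulator lists lie far to the right, and the matrix and macrophage lists farthest to the left.

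Ligands and receptors were set against each other in 234 curated pairs, of which 215 had both partners measured. Of 84 ligands measured, 7 were called in duct and 6 in interstitium, and of 101 receptors, 7 in duct and 3 in interstitium (9.9%), against 4.46% of all genes. A ligand called on one side faced a receptor called on the other in 4 pairs. In 2 of them the ligand was the duct's, Wnt7b and Wnt9b with Fzd10, and in 2 the interstitium's, Nrg1 with Erbb3 and Col1a1 with Ddr1. Vegfc and Nrp2 were both called in interstitium, no pair was called in duct on both sides, 51 pairs had 1 partner called and 159 none. The number of facing pairs was 0 without duct array 2, 1 without interstitium array 3, 2 without interstitium array 4 and 3 without the 3 arrays set aside. Where a pair held a call, it was most often of 1 partner alone.

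**Figure D4:**
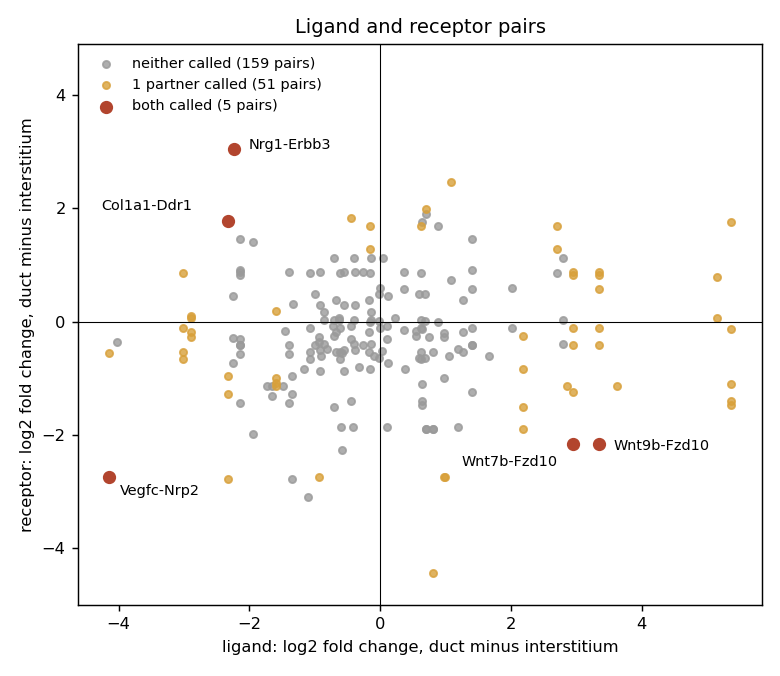
Log2 fold change of the receptor (vertical axis) against that of the ligand (horizontal axis) for 215 pairs, positive where higher in duct. The 4 facing pairs lie in the upper left and lower right and the pair of Vegfc with Nrp2 in the lower left.

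The Wnt ligands Wnt7b and Wnt9b were higher in the duct. Wnt7b, the duct ligand that the renal medulla needs to form, read 10.98, 12.79 and 12.32 in duct and 8.82, 8.74, 9.62 and 9.13 in interstitium (2.95 ± 0.42, 7.75-fold, adjusted p = 3.08e-05). Wnt9b, which the duct uses to signal to mesenchyme, read 12.28, 12.73 and 11.86 against 10.91, 9.39, 7.52 and 7.92 (3.35 ± 0.68, adjusted p = 0.00253). For both, every duct array lay above every interstitium array. The dimmer probe set of each was not called (0.44 and 0.07). Of the receptors, Fzd10 was called in interstitium at 7.45, 6.35 and 7.18 against 8.1, 8.5, 10.47 and 9.6 (-2.17 ± 0.53). Its call was lost without duct array 2 or interstitium array 3 (adjusted p = 0.133 and 0.0677). The other receptors paired with these ligands were not called, among them Fzd1 (-1.25), Fzd4 (0.87), Fzd7 (-0.42) and the coreceptor Lrp6 (-0.12). Without the 3 arrays set aside Fzd4 was called in duct at 1.69 (adjusted p = 0.0336).

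Downstream and around the Wnt ligands, 55 genes of the pathway gave 2 calls in duct and 3 in interstitium, against 4.46% of all genes. The counts were 2 and 0 without duct array 2, and 3 and 4 without the 3 arrays set aside. The interstitium calls besides Fzd10 were the secreted antagonist Sfrp2 (-1.78 ± 0.48) and the membrane antagonist Apcdd1, itself a Wnt target (-2.2 ± 0.6). Sfrp2 lost its call without duct array 1 or 2 or interstitium array 3 or 4 (adjusted p = 0.0506 to 0.17), and Apcdd1 without duct array 2 or 3 or interstitium array 3 or 4 (0.0818 to 0.207). Axin2 and Lef1, 2 general readouts of canonical Wnt signalling, were not called (-0.97 ± 0.78 and -1.39 ± 0.78). Wnt4, known from medullary stroma as well as from nephron precursors, was at 13.35, 14.14 and 13.72 in duct and 12.13 to 12.48 in interstitium. Its difference of 1.4 ± 0.92 was not called (adjusted p = 0.516) despite the lack of overlap. Wnt5a, a noncanonical ligand, was at 11.14 ± 0.25 (SD, n = 3) in duct and 13.29 ± 1.27 (SD, n = 4) in interstitium, also not called (-2.15 ± 0.94, adjusted p = 0.238).

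Of the Hedgehog genes, the ligand Shh was called in the duct, from which it signals to ureteric and medullary stroma. It read 12.09, 14.78 and 14.82 in duct and 11.95, 8.53, 6.31 and 7.32 in interstitium, a log2 fold change of 5.37 ± 0.96 (41.2-fold, adjusted p = 0.000664). Without the 3 arrays set aside it was 7.98. Its dimmer probe set was not called (-0.25). Its receptor and target Ptch1 read 13.31, 12.57 and 12.67 in duct and 12.67, 14.44, 14.52 and 14.19 in interstitium. Interstitium array 1, which held the Shh signal, was the lowest of the 4 for Ptch1. The difference of -1.11 ± 0.47 was not called (adjusted p = 0.214, and 0.0438 without interstitium array 1), nor were those of the targets Gli1 (-1.72 ± 0.65, adjusted p = 0.146) and Hhip (-1.47 ± 0.58, adjusted p = 0.173). All 3 had the interstitium as the higher mean. The Scube family, secreted helpers of Hedgehog release, was split: Scube3 read 13.82, 14.12 and 13.88 in duct and 11.71, 10.47, 9.87 and 9.95 in interstitium (3.44 ± 0.48, adjusted p = 1.67e-05), and Scube2 was called in interstitium (-2.91 ± 0.84). Scube2 lost its call without any array other than interstitium array 2 (adjusted p = 0.0775 to 0.148). Of 20 pathway genes measured, Shh and Scube3 were the calls in duct and Scube2 the call in interstitium, against 2.46% and 2.01% of all genes.

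Nrg1 and its receptor faced each other the other way round. Nrg1, a ligand of the Egf receptor family, read 5.56, 6.53 and 6.3 in duct, near the bottom of the scale, and 6.6, 8.62, 8.59 and 9.64 in interstitium (-2.23 ± 0.57, adjusted p = 0.0161). Its receptor Erbb3 read 12.25, 13.73 and 13.73 in duct and 11.72, 10.3, 7.89 and 10.9 in interstitium (3.04 ± 0.67, adjusted p = 0.0053). Interstitium array 1 was the lowest of the 4 for Nrg1 and the highest for Erbb3. Nrg1 lost its call without duct array 1, duct array 2 or interstitium array 4 (adjusted p = 0.0579 to 0.091), and Erbb3 without duct array 2 (0.0685). They were 2 calls among 42 genes of the Fgf, Egf, Hgf and Gdnf pathways, near the 4.46% of all genes called. Without the 3 arrays set aside this list held 6 calls in duct and 2 in interstitium. Col1a1 (-2.33 ± 0.68) and its receptor Ddr1 (1.77 ± 0.49) were called in interstitium and duct. No other probe set of Ddr1 was called (-0.59 to 1.41), and neither was the dimmer probe set of Col1a1 (-1.51). Col1a1 lost its call without any array but duct array 1 (adjusted p = 0.05 to 0.3), and Ddr1 without duct array 1 or 2 or interstitium array 1, 2 or 4 (0.0512 to 0.231).

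Vegfc, the growth factor of lymphatic vessels, was higher in the interstitium. It read 8.51, 5.88 and 8.34 in duct and 11.49, 10.4, 12.8 and 12.2 in interstitium (-4.14 ± 0.66, 17.7-fold, adjusted p = 0.00014), and all 3 of its probe sets were called. Its coreceptor Nrp2 was called on the same side (-2.74 ± 0.71), a call lost without duct array 2 or 3 or interstitium array 3 (adjusted p = 0.0506 to 0.166). Its main receptor Flt4 was not called (-0.55 ± 0.51), and neither were Vegfa (0.97 ± 0.59) or Kdr (-0.99 ± 0.83). Of 35 Pdgf, Vegf and Igf pathway genes, none was called in duct and 3 in interstitium, against 2.46% and 2.01% of all genes. Pdgfra, the receptor that marks much of the stroma, was at 12.15 to 14.01 in duct and 14.32 to 15.26 in interstitium. It was lower in every duct array and not called (-1.87 ± 0.66, adjusted p = 0.11), but was called at -2.41 under median scaling.

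Among Bmp and Tgf-beta genes, the interstitium was higher for a ligand and an antagonist. Bmp5 read 10.52, 10.73 and 8.76 in duct and 12.78, 12.6, 12.83 and 13.84 in interstitium (-3.01 ± 0.85, adjusted p = 0.031), with all 3 probe sets called. Sostdc1, which blocks Bmp and Wnt signals, read 10.7, 9.17 and 8.38 against 12.82, 12.04, 13.62 and 12.98 (-3.45 ± 0.87, adjusted p = 0.0145). Bmp5 lost its call without duct array 2 or 3 or interstitium array 3 or 4 (adjusted p = 0.0628 to 0.218), and Sostdc1 without duct array 2 or 3 or interstitium array 3 (0.0551 to 0.114). The activin receptors Acvr1b (1.28) and Acvr2b (1.69) were called in duct. Acvr2b lost its call whichever array was left out (adjusted p = 0.0534 to 0.202), and Acvr1b without any but duct array 1 and interstitium array 2 (0.0603 to 0.498). Bmp4 and Bmp7 were not called (-1.08 ± 0.56 and 0.62 ± 0.55), and 4 of 41 pathway genes were called in all, against 4.46% of all genes.

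Guidance genes divided evenly, with 4 of 56 called in duct and 4 in interstitium, against 2.46% and 2.01% of all genes. The counts were 1 and 1 without duct array 2, and 4 and 3 without the 3 arrays set aside. Efnb2, a membrane ligand that is also an arterial marker, read 14.23, 14.66 and 14.82 in duct and 12.77, 12.2, 12.28 and 12.25 in interstitium (2.19 ± 0.48, adjusted p = 0.00486). Plxnc1, a semaphorin receptor, read 7.28, 7.67 and 8.85 against 12.22, 11.31, 11.72 and 13.24 (-4.19 ± 0.65, adjusted p = 0.000107), and 1 of its 5 other probe sets was called (-2.91). Sema3a, a repellent ligand of neuropilin receptors, was called in interstitium (-2.9 ± 0.77), as was the ephrin receptor gene Epha3. Sema3a lost its call without duct array 2 or 3 or interstitium array 3 or 4 (adjusted p = 0.0574 to 0.155), and Epha3 without duct array 2 (0.117). No receptor paired with Efnb2 was called, and Epha4 and Ephb1 had -1.9 and -1.5.

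Single calls stood in the lists of integrins (16 measured), polycystic kidney and cilium genes (14) and immediate early and heat shock genes (21), in duct, and of cell cycle genes (27), in interstitium; 3 of 17 hypoxia and glycolysis genes were called in duct. Single calls in lists of this size are near the 4.46% of all genes called. None of these 7 calls was kept without duct array 2.

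No call fell among 20 Notch genes, 17 retinoic acid genes or 30 genes of chemokine, endothelin, angiotensin and prostaglandin signalling. With 4.46% of all genes called, lists of this size hold few calls at the background share. Limma gave 1, 3 and 6 of them an unadjusted p under 0.05. Ackr3, a scavenger receptor for Cxcl12, came closest in the last group. It read 14.86, 15.26 and 15.15 in duct and 13.36, 14.03, 13.98 and 13.38 in interstitium (1.4 ± 0.43, adjusted p = 0.0517), and Cxcl12 was lower in every duct array (-1.94 ± 0.67, adjusted p = 0.0992). Neither met the threshold. Calb1, a classical marker of ureteric epithelium, was not called. It read 14.3, 10.02 and 12.99 in duct and 14.98, 14, 11.43 and 12.53 in interstitium (-0.8 ± 1.53, adjusted p = 0.891), highest in interstitium array 1. Its dimmer probe sets gave 1.35, 0.15 and 1.35 and were not called. Hoxb7, another such marker, was below the signal filter. Of the 10 markers by which the duct label was checked, Gata3, Krt8, Krt18, Cdh1, Cdh16, Epcam and Wnt7b were called in duct and Aqp2 and Calb1 were not. The calls of Cdh16 and Epcam (4.33 and 2.91) were lost without duct array 2 (adjusted p = 0.0507 and 0.227), and that of Epcam also without duct array 1 or 3 or interstitium array 3 or 4. Of 28 interstitium markers measured, 8 were called in interstitium, against 2.01% of all genes. The count was 0 without duct array 2 and 4 without the 3 arrays set aside. Among markers of the interstitium label, Col1a1, Lum and Tcf21 were called, but not without duct array 2 (adjusted p = 0.3, 0.0507 and 0.399). Pdgfra, Pdgfrb, Col3a1 and Foxd1 were among those not called.

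The difference between epithelium and stroma was not the same at E15.5 as at E11.5 for 218 genes (1.39% of those tested). The duct minus interstitium difference was higher than the ureteric bud minus mesenchyme difference for 128 (0.815%) and lower for 90 (0.573%). The titles of the E11.5 arrays name different ways of collecting the tissue, and with the 3 mesenchyme arrays titled as laser captured alone the count was 102. The titles of the 4 ureteric bud arrays name dissection or collagenase. That setting therefore does not match the collection of bud and mesenchyme, and tissue and collection cannot be told apart in it. The count was 138 without duct array 3, 143 without ureteric bud array 2 and 181 without the 3 arrays set aside. Of the 128, 60 were called in mesenchyme at E11.5 and in neither tissue at E15.5, and 46 were called in duct at E15.5 and in neither tissue at E11.5. Of the 90, 62 were called in bud at E11.5 and in neither at E15.5, and 18 in interstitium at E15.5 alone.

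**Figure D5:**
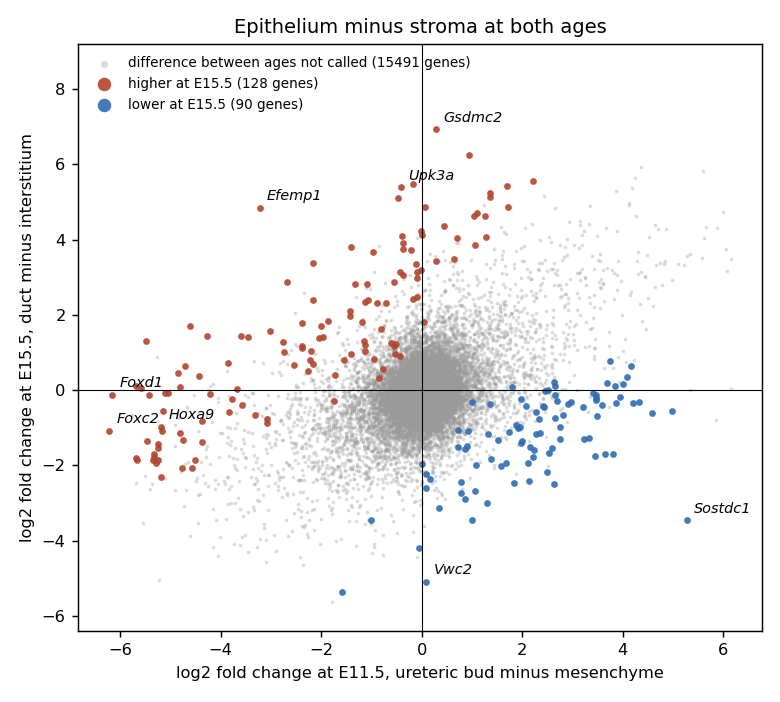
Log2 fold change at E15.5, duct minus interstitium (vertical axis), against that at E11.5, ureteric bud minus mesenchyme (horizontal axis), 1 point per gene. The 128 genes with a higher difference at E15.5 lie to the upper left and the 90 with a lower one to the lower right, with Sostdc1 the farthest.

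Sostdc1 turned round between the ages. At E11.5 it was higher in bud than in mesenchyme by 5.27, and at E15.5 it was lower in duct than in interstitium by -3.45, a difference of -8.72 ± 1.11 (adjusted p = 9.87e-06). Efemp1, a fibulin of the extracellular matrix, did the opposite, with 4.85 at E15.5 and -3.22 at E11.5 (8.07 ± 1.56, adjusted p = 0.00326). It read 13.19, 14.3 and 13.93 in duct and 11.67, 8.04, 8.38 and 7.74 in interstitium, and its call at E15.5 was lost without duct array 2 or 3 or interstitium array 4 (adjusted p = 0.0587 to 0.113). Some genes called in duct at E15.5 had been near equal in bud and mesenchyme: Upk3a had -0.42 at E11.5 (difference 5.82 ± 0.64), Gsdmc2 0.28 (6.65 ± 0.81), and Fxyd3 0.07 (4.79 ± 0.77). In the other direction Vwc2 had 0.09 at E11.5 and -5.09 at E15.5 (-5.18 ± 0.94). Socs2, a feedback inhibitor of cytokine signalling, had 2.63 and -2.5 (-5.13 ± 0.85), and its other 5 probe sets were not called at E15.5. Its call at E15.5 was lost without duct array 2 or 3 or interstitium array 3 (adjusted p = 0.0615 to 0.173), and its change with age with another probe set (-3.91, 0.0726). Other bud genes were not called at E15.5: the ligand Wnt6 had 3.46 at E11.5 and -0.27 at E15.5, the receptor gene Fgfr4 4.01 and 0.16, the feedback inhibitor Spry1 2.66 and -0.14, and Ovol2 3.59 and -0.4. The change with age was called for each of these 4 (adjusted p = 0.00211, 0.00491, 0.00242 and 0.00211).

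Some regulators of the early mesenchyme were among the genes whose difference was higher at E15.5. Of the 128 such genes, 7 were called in mesenchyme at E11.5 and in interstitium at E15.5; the regulators named here were not called at E15.5. Foxc2 was at -6.21 at E11.5 and -1.08 at E15.5 (difference 5.13 ± 0.73, adjusted p = 6.43e-05), Hoxa9 at -5.18 and -0.97 (4.21 ± 0.45, adjusted p = 4.36e-07), Hoxc10 at -5.14 and -0.56 (4.58 ± 0.72) and Sall1 at -4.84 and 0.45 (5.29 ± 0.86). Foxd1 and Eya1 had -6.16 and -5.48 at E11.5 and -0.12 and 1.3 at E15.5. Their differences of 6.05 ± 1.25 and 6.78 ± 1.37 lost the call with the mesenchyme arrays titled as laser captured alone (adjusted p = 0.0596 for both). Aldh1a2, which makes retinoic acid, had -4.42 and 0.37 (4.79 ± 0.82), and the integrin gene Itga8, a receptor of nephronectin, had -4.81 and -1.13 (3.69 ± 0.66, and 3.59 with an adjusted p of 0.292 for another probe set). The mesenchyme at E11.5 holds nephron progenitors as well as stroma, so the tissue next to the epithelium was not the same at both ages. Adh1 and Arg1, 2 metabolic enzyme genes, followed the same course, with -4.61 and -5.69 at E11.5 and 1.71 and 0.11 at E15.5. Vstm5, Vsnl1 and Arg2 had 3.81, 4.97 and 4.59 at E11.5 against -1.71, -0.57 and -0.61 at E15.5, and Chst2 had -4.27 against 1.44. Without the 3 arrays set aside Vsnl1 and Arg2 lost their calls (adjusted p = 0.0543 and 0.072), and Chst2 lost its call with the laser captured mesenchyme alone (0.0783). With title date as a fixed term Arg1, Arg2 and Chst2 lost theirs (adjusted p = 0.0599, 0.0713 and 0.0646). Ctnnd2 and Cxcl14 also ranked among the 8 largest lower differences (-5.35 ± 1.31 and -5.2 ± 1.28). Ctnnd2 lost its call without duct array 1 or 2, interstitium array 1 or 2 or ureteric bud array 3 (adjusted p = 0.059 to 0.108), and Cxcl14 without duct array 2 or 3, interstitium array 1 or 4 or ureteric bud array 1, 2 or 4 (0.0519 to 0.12). Ctnnd2 and Cxcl14 also lost their calls without the 3 arrays set aside (adjusted p = 0.423 and 0.123). The same held with title date as a fixed term (0.227 and 0.0569) and with the laser captured mesenchyme alone (0.0893 and 0.189).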

How the data were processed

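The series holds 37 Affymetrix arrays of RNA from captured or dissected parts of embryonic mouse kidneys. The deposited values are probe set signal intensities on a linear scale that the authors made with GCOS, per the submitters' processing notes, and each array has a trimmed mean (2% cut at each end) of 1500. No aligner or genome build enters such values.

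The offset of 34.62 (the 20th percentile of all signals) was added, log2 was taken, and all 37 arrays were quantile normalized. Genes were named from the platform annotation: of 45101 probe sets, 34945 had 1 gene, 932 several and 9160 none, and 64 were controls. Genes above the pooled median (7.89) in at least 2 arrays were kept, each by its brightest probe set, which left 15709. Limma 3.58.1 in R 4.3.3 fitted 1 mean per component (28 residual and 7.35 prior degrees of freedom), and adjusted p-values are its moderated tests after Benjamini-Hochberg adjustment over all genes. The difference between ages is the contrast of the duct minus interstitium and the bud minus mesenchyme differences in the same fit. On simulated data of 15709 genes for duct versus interstitium, 10%, 44%, 94% and 98% of genes changed by 1, 2, 4 and 6 on the log2 scale were recovered, with 8 false calls. The simulated noise was independent between arrays and between genes, drawn with each gene's residual SD, and no array held a mixture of duct and stroma. These rates therefore do not give the error of the calls made on the real arrays. The number of arrays limits the precision.

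The members, the 33 gene lists and the 234 pairs were chosen with earlier results of these data known. Genes named are the 15 largest calls per direction whose arrays do not overlap, members of the lists and pairs, and for the ages the 8 largest calls per direction and called list members. Clone, predicted gene and similar names without a descriptive symbol were left out of the 15 and the 8. Settings tried were the offset, scaling, filter, probe set choice, array weights, samples in the fit, title date, title number and each array left out. Duct and interstitium arrays that share a number in their titles did not deviate together (r = 0.046 and -0.038), so numbers were not used as pairs. Promoters came from a RefSeq table (GRCm38.p6).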

Additional observations from a re-analysis of the deposited data

Results flagged for a closer look

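In 7 of 151 sets of 4 interstitium values examined, 1 array lay far from the other 3, by a criterion that chance meets in about 1 in 20 sets. Interstitium array 1 was high for Krt7 (10.58 against 8.48 to 8.8), Spint1 (11.62 against 9.28 to 9.53), Efnb2 (12.77 against 12.2 to 12.28), Cxcl12 (14.17 against 13.15 to 13.29) and Efemp1 (11.67 against 7.74 to 8.38). Interstitium array 3 was low for Cldn8 (5.48 against 8.71 to 8.82). Interstitium array 2 was low for Snai1 (5.96 against 7.19 to 7.38).

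For 27 genes named, the epithelium minus neighbouring tissue difference itself differed between E15.5 and E11.5 by limma's interaction contrast. On the log2 scale, the E15.5 difference was higher for Efemp1 (8.07), Upk3a (5.82), Gsdmc2 (6.65), Fxyd3 (4.79), Foxc2 (5.13), Hoxa9 (4.21), Hoxc10 (4.58), Sall1 (5.29), Foxd1 (6.05), Eya1 (6.78), Aldh1a2 (4.79), Itga8 (3.69), Adh1 (6.32), Arg1 (5.8) and Chst2 (5.71). It was lower for Sostdc1 (-8.72), Vwc2 (-5.18), Socs2 (-5.13), Wnt6 (-3.73), Fgfr4 (-3.85), Spry1 (-2.79), Ovol2 (-3.98), Vstm5 (-5.52), Vsnl1 (-5.55), Arg2 (-5.2), Ctnnd2 (-5.35) and Cxcl14 (-5.2).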

How the results depend on the processing

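The count of 701 genes that differed between duct and interstitium was 1453 with array weights and 306 with only the 20 arrays of E15.5, and 173 to 793 with 1 of the 7 arrays left out. The count of 218 genes whose difference changed with age was 821 with array weights, 102 with the mesenchyme arrays titled as laser captured alone and 138 to 213 with 1 array left out. The 4 facing pairs became 2 with the stricter filter, 13 with array weights, 1 with only the E15.5 arrays, 2 with title date as a fixed term and 0 to 5 with 1 array left out. With the replicate block (title number as a fixed term), 538 genes and 2 facing pairs were called, and 124 genes for the change with age; the numbers do not pair the samples. The other settings kept each of these 3 counts within 1.5 times. Median scaling turned the split of 386 duct and 315 interstitium calls into 278 and 487, and changed the age split from 128 higher and 90 lower to 100 and 222. In the fit of the 7 arrays normalized alone the split was 254 and 281. Duct array 2 and interstitium array 1 share a date in their titles. Between them 383 of the 386 duct genes and 313 of the 315 interstitium genes differed in the direction called. Both arrays took part in making these calls, so the counts are no separate check of them. Of 103 called genes named, 54 kept the call with each of the 7 arrays left out, and the other 49 lost it without duct array 2. Lyz1 turned from -5.05 to 0 without probe sets of shared sequence (names ending in _x_at and _s_at). The causes of these changes were not tested. Signals near the offset limit the fold changes of weakly expressed genes such as Nrg1.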
